A study of Mus musculus with 4 samples.

Results

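The 10 genes described here encode antiviral effectors of the interferon response that lie outside its large families of Oas, Ifit, Gbp and immunity-related GTPase genes. They are Rsad2, Cmpk2, Ifi27, Ifi27l2a, Ifi44, Bst2, Rtp4, Xaf1, Samd9l and Mx1, picked by name as known interferon-induced genes. That choice was made with earlier results of these data known, so their counts beside shares of all genes are a description. Each of the 10 was found among the 54532 genes of the deposited FPKM table (fragments per kilobase of gene, scaled to library size), matched through the gene symbols of GENCODE M21.

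Interferons, the cytokines that cells release on sensing viruses, induce a set of proteins that act against viral entry, copying and release. Their receptors pass the signal through Janus kinases to STAT proteins and the partner Irf9, and this complex binds a short repeated DNA element, the interferon-stimulated response element, in front of its target genes.

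RNA was sequenced from 4 libraries of cultured bone marrow cells of CB6F1 mice, the F1 hybrid of BALB/c and C57BL/6. The cells, obtained by digesting unfractionated marrow and then cultured, bear the label MSCs, and aGVHD stands in each title. The R group (n = 2) received an agent that the labels name only as R, at 0.5 µM (the labels have "um"). The vehicle group (n = 2) received its solvent, DMSO. Age, sex and duration of treatment are not stated there. Nor is it stated whether replicates were separate cultures or mice, and p-values thus cover only differences among these libraries, which may be technical.

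Transcripts of macrophages were abundant in cells labelled MSCs. The 27 macrophage and monocyte markers summed to 17352 and 13450.5 FPKM in the R libraries, against 25581 and 22923 FPKM in the vehicle libraries, and none was listed at 0. Lyz2 alone gave 8891 and 7061 FPKM of these sums in R, against 14569 and 12540 FPKM in vehicle. The 24 stromal markers summed to 4056 and 4225 FPKM in R, against 3952 and 3921 FPKM in vehicle, although Lepr and Thy1, often used to define marrow stromal cells, stayed at 0.265 to 0.69 FPKM. Of 11 markers of T, NK and B cells, 6 were at 0 in each library, Cd3e, Cd3d, Cd3g, Cd8a and Ncr1 among them. Cd4, which macrophages can also carry, was at 6.35 and 6.57 FPKM in the R libraries, against 8.14 and 8.13 FPKM in the vehicle libraries. Cd79b was at 1.23 and 0.695 FPKM in the R libraries, against 1.86 and 2.22 FPKM in the vehicle libraries, and limma called neither (adjusted p = 0.294 and adjusted p = 0.186). Reads recovered from the values numbered 16534440 to 18085183 per library.

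The effector transcripts were lower in R, and in bulk RNA fewer cells of a type and less RNA per cell cannot be told apart. All 10 genes had both R libraries below both vehicle libraries, which held for 25.2% of all 12176 genes tested. In limma with Benjamini-Hochberg adjustment over those genes, 7 of the 10 fell in R at an adjusted p under 0.05 and 0 rose, where 1.37% of all tested genes fell and 0.345% rose. Over all genes that was 167 lower and 42 higher, against 124 and 58 on the TPM scale and 349 and 223 after a correction for gene length. The 7 were Rtp4, Ifi27l2a, Rsad2, Xaf1, Mx1, Ifi44 and Cmpk2. All 10 had an unadjusted p under 0.05, as did 1947 of all 12176 genes tested. Their median log2 fold change was -1.74 on the log2(FPKM + 1) scale, against 0.00 for all genes tested. Limma-voom on the recovered reads called 9 of the 10 lower and 0 higher, where it called 2.03% of 11564 genes lower. With no minimum level set, limma called 0 of the 10 (9 at an unadjusted p under 0.05) and 0 of all 24958 genes (2767 at an unadjusted p under 0.05). The R pair lay wider apart than the vehicle pair, with an SD of the log2 ratio of replicates over genes of 0.35 in R and 0.25 in vehicle. In the limma fits with a single library left out, none of the 10 could change direction, because their groups did not overlap. Each of these fits has an arm of 1 library, so its calls are not given. Replicate spread then comes from the other pair only, and limma draws it towards that of all genes.

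**Figure D1:**
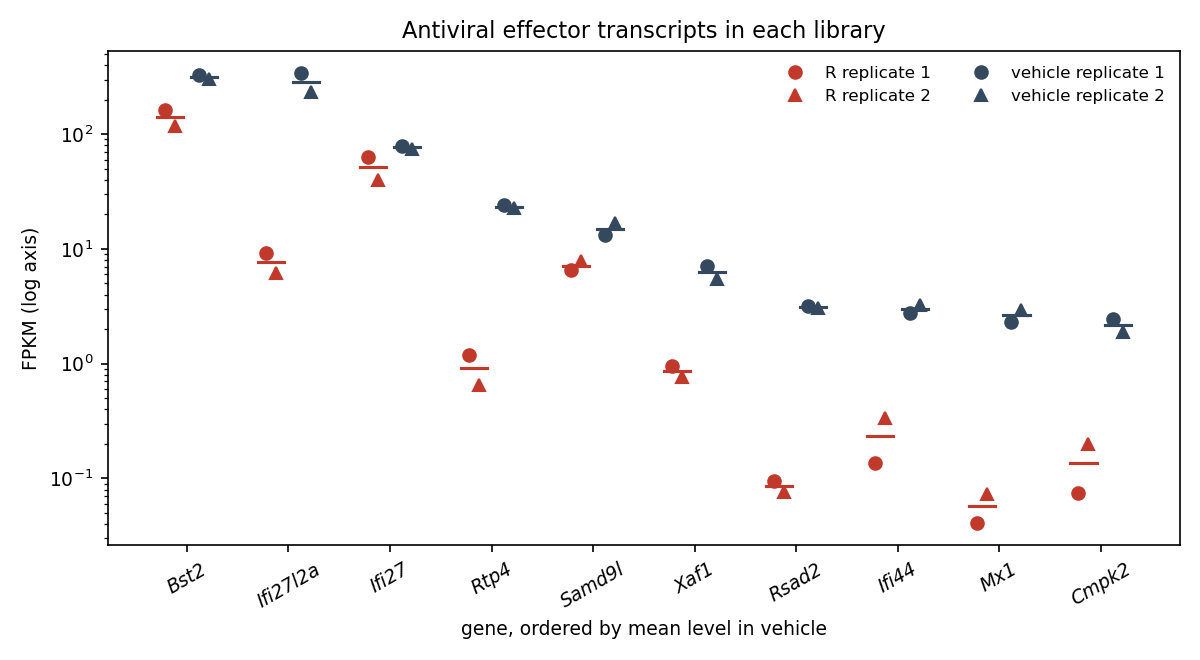
FPKM of each of the 10 genes (horizontal, ordered by mean in vehicle) in each library on a log axis, R in red left of vehicle in blue, with a line at each group's mean. In each gene both R points lie below both vehicle points, by the widest margin in Mx1, Ifi27l2a and Rsad2 (46.2-, 37.4- and 36.1-fold lower means) and by the narrowest in Ifi27 (1.5-fold).

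Promoter sequences, shown because the members moved together, came from RefSeq (GRCm38.p6) and matched 6 of the 10 genes: Bst2, Cmpk2, Ifi44, Rsad2, Samd9l and Xaf1. Ifi27, Ifi27l2a, Rtp4 and Mx1 had no entry. The windows run from 250 bases before the annotated start of transcription to 50 after it and were searched on both strands for the core of the interferon-stimulated response element (GAAA, any 2 bases, then GAAA) and for TTCNNNGAA, the gamma-activated site bound by STAT dimers. The response element core was present in 2 of the 6 windows, those of Rsad2 and Bst2, and in 3.43% of all 32817 windows. TTCNNNGAA was present in 1 of the 6, that of Bst2, and in 8.29% of all windows. Among 59 windows of 43 other interferon-stimulated genes, the core was in 24 and TTCNNNGAA in 10. A match describes letters and shows no binding.

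The 250 bases before the start are given 5′ to 3′ on the strand of each gene, with matches to the core or its reverse complement in capitals. The Rsad2 and Bst2 windows hold a match, and the Cmpk2 window, from the divergent neighbour of Rsad2, holds none. The stretch for Rsad2 is chr12:26456453-26456702 (minus strand), for Bst2 chr8:71537473-71537722 (minus strand) and for Cmpk2 chr12:26468965-26469214 (plus strand).
Rsad2: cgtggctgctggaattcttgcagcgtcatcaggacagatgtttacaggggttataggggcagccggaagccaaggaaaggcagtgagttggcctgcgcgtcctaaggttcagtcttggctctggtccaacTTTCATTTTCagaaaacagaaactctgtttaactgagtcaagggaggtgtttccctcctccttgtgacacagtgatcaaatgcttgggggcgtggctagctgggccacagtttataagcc
Bst2: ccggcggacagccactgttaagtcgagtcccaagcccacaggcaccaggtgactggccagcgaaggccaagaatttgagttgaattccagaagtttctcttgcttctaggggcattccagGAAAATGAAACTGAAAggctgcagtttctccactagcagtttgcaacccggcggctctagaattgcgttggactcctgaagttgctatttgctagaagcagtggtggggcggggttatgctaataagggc
Cmpk2: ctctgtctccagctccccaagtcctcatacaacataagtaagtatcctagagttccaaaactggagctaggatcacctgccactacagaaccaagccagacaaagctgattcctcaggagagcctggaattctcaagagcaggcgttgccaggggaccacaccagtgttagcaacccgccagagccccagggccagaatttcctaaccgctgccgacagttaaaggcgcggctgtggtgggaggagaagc
The match in Rsad2 is on the opposite strand, 120 to 111 bases before the start. In Bst2 there are 2 overlapping matches, at 130 to 121 and 124 to 115 bases before the start, and the TTCNNNGAA match at 136 to 128 overlaps the first of them.

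Rsad2 and Cmpk2 act on nucleotides. Rsad2 encodes viperin, an enzyme that turns CTP into a chain terminator of viral polymerases, and Cmpk2 a mitochondrial kinase that phosphorylates CMP and UMP. Rsad2 (ENSMUSG00000020641) spans chromosome 12, positions 26442746 to 26456452 of GRCm38, and Cmpk2 (ENSMUSG00000020638) chromosome 12, positions 26469204 to 26479837. The genes are transcribed away from each other with 12752 bases between their starts.

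Rsad2 was at 0.0956 and 0.0765 FPKM in the R libraries, against 3.18 and 3.03 FPKM in the vehicle libraries. The groups did not overlap, and the vehicle libraries lay near each other far above both R libraries. These values rested on 8 and 6 reads in R and 243 and 236 in vehicle. The mean was 36.1-fold lower in R, and the vehicle over R ratio of reads summed per group and scaled to library size was 36.0 (95% interval 21.2 to 66.3), an exact binomial interval. Intervals of this kind cover counting error only. Rsad2 fell by 1.92 on the log2(FPKM + 1) scale (SE 0.15; limma, Benjamini-Hochberg adjusted p = 0.00668). On this scale low genes appear to change less than they do, and voom on reads gave a log2 fold change of -5.08.

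Cmpk2 was at 0.0747 and 0.199 FPKM in the R libraries, against 2.44 and 1.9 FPKM in the vehicle libraries. The groups did not overlap, and R replicate 2 was 2.67 times R replicate 1, on 6 and 15 reads in R and 179 and 142 in vehicle. The mean was 15.8-fold lower in R, and Cmpk2 fell by 1.48 on the log2(FPKM + 1) scale (SE 0.17; limma, Benjamini-Hochberg adjusted p = 0.0194). The Rsad2 over Cmpk2 ratio was 1.28 and 0.384 in the R libraries, against 1.30 and 1.60 in the vehicle libraries, with a wider spread in R than in vehicle. Cmpk1, the cytosolic kinase for the same substrates, was at 29.1 ± 1.83 in R libraries and 35.8 ± 0.711 in vehicle libraries (FPKM, SD, n = 2 each) and was not called (limma, adjusted p = 0.328). The Cmpk2 over Cmpk1 ratio was 0.00269 and 0.00656 in R, against 0.0672 and 0.0539 in vehicle (exact permutation test, two-sided, p = 0.333, the smallest that 2 against 2 libraries can give).

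Mx1 encodes a dynamin-like GTPase that blocks influenza virus in the nucleus of mouse cells. Most laboratory strains, C57BL/6 and BALB/c among them, carry defective alleles, so its RNA is read here as a transcript and not as a working protein. Mx1 (ENSMUSG00000000386) spans chromosome 16, positions 97447035 to 97462907. Its level was 0.0411 and 0.073 FPKM in the R libraries, against 2.32 and 2.94 FPKM in the vehicle libraries, the lowest mean of the 10 genes in R. Both R libraries were far below both vehicle libraries, with 3 and 5 reads in R and 155 and 200 in vehicle. The mean was 46.2-fold lower in R, and the vehicle over R ratio of summed reads was 46.6 (95% interval 23.4 to 109). Mx1 fell by 1.78 on the log2(FPKM + 1) scale (SE 0.17; limma, Benjamini-Hochberg adjusted p = 0.0101).

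Mx2, the related gene 72.4 kb away that GENCODE M21 lists as a polymorphic pseudogene, was at 0.129 and 0.153 FPKM in the R libraries, against 2.16 and 1.94 FPKM in the vehicle libraries. It fell by 1.42 on the same scale (SE 0.16; limma, Benjamini-Hochberg adjusted p = 0.0153). The Mx1 over Mx2 ratio was 0.318 and 0.477 in R, against 1.07 and 1.52 in vehicle (exact permutation test, two-sided, p = 0.333). With 3 and 5 reads of Mx1 in the R libraries, that ratio is imprecise. Mx1 and Mx2 are similar in sequence, so reads could be split between them.

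Ifi27 and Ifi27l2a belong to a family of small hydrophobic interferon-induced proteins of mitochondrial and other membranes. They lie side by side on chromosome 12, Ifi27 (ENSMUSG00000064215) at 103434211 to 103440239 and Ifi27l2a (ENSMUSG00000079017) at 103442167 to 103443680, with 1927 bases between them.

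Ifi27l2a was at 9.18 and 6.21 FPKM in the R libraries, against 340.4 and 236 FPKM in the vehicle libraries. The spread within each group was small beside the gap between groups. Its fall by 5.05 (SE 0.24; limma, Benjamini-Hochberg adjusted p = 0.0019) was the lowest log2 fold change of all 12176 genes tested. It rested on 82 and 52 reads in R and 2780 and 1958 in vehicle, with a vehicle over R ratio of summed reads of 37.2 (95% interval 31.3 to 44.5).

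Ifi27 was at 63.2 and 39.5 FPKM in the R libraries, against 79.5 and 74.5 FPKM in the vehicle libraries. The R libraries differed from each other 1.6-fold, and R replicate 1 lay near the vehicle libraries without reaching them. Its log2 fold change was -0.61 (SE 0.23) and was not called (limma, adjusted p = 0.281). Without R replicate 1 it was -0.94 and without R replicate 2 it was -0.28, each from a fit with an arm of 1 library. Over the alternatives that keep all libraries, limma gave adjusted p = 0.00225 to adjusted p = 0.511. The lowest came with a term for replicate number, which leaves 1 residual degree of freedom.

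The Ifi27l2a over Ifi27 ratio was 0.145 and 0.157 in the R libraries, against 4.28 and 3.16 in the vehicle libraries (exact permutation test, two-sided, p = 0.333, the smallest possible here). In vehicle, Ifi27l2a was the more abundant of the pair per length, and in R Ifi27 was. In all, 4 such ratios of related genes were tested, each with an adjusted p = 0.333. Ifi27l2b, the third gene of this stretch, stayed at 0 to 0.102 FPKM in each library, or at most 2 reads. Its sequence is close to that of Ifi27l2a, so reads could be split between these copies.

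Bst2 encodes tetherin, which holds budding enveloped virus particles at the cell surface. Bst2 (ENSMUSG00000046718; chromosome 8, positions 71534255 to 71537456) was at 163 and 117 FPKM in the R libraries, against 326 and 302 FPKM in the vehicle libraries, the highest mean of the 10 genes in either group. The groups did not overlap, and the R libraries differed 1.39-fold from each other. Its log2 fold change of -1.17 (SE 0.20) was not called (limma, adjusted p = 0.056). Voom on reads called it lower (adjusted p = 0.0151). The log2 fold change was -1.41 and -0.94 without R replicate 1 or 2, and -1.12 and -1.23 without vehicle replicate 1 or 2. Over all alternatives in limma the range was adjusted p = 4.59e-07 to adjusted p = 0.244. The lowest came with a term for replicate number, a fit with 1 residual degree of freedom and no known pairing. Bst2 also marks plasmacytoid dendritic cells. Among the other markers listed for those cells, Siglech was at 0.0153 and 0.131 FPKM in R, against 0.0335 and 0.0329 FPKM in vehicle, Ccr9 had 1 read in each of the 4 libraries and Klk1 was at 0. Irf8, Tcf4 and Cox6a2 were expressed, with means of 19.3, 4.29 and 1.59 FPKM in R, against 24.6, 4.83 and 1.66 FPKM in vehicle, and limma called none of them. Which cells gave the Bst2 transcripts was not tested.

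Samd9l encodes a cytoplasmic protein that restricts poxviruses by stopping translation. Samd9l (ENSMUSG00000047735; chromosome 6, positions 3372257 to 3399572) was at 6.51 and 7.81 FPKM in the R libraries, against 13.2 and 16.8 FPKM in the vehicle libraries. The groups did not overlap and the vehicle libraries were further apart than the R libraries. Its mean was 2.1-fold lower in R, a log2 fold change of -0.97 (SE 0.16) that was not called (limma, adjusted p = 0.0541). It was called by voom on reads (adjusted p = 0.0242). Its log2 fold change was -0.85 and -1.08 without R replicate 1 or 2, and -1.13 and -0.80 without vehicle replicate 1 or 2. Over all alternatives in limma the range was adjusted p = 7.69e-09 to adjusted p = 0.232. Here too the lowest came with the term for replicate number, which leaves 1 residual degree of freedom. Samhd1, a hydrolase of deoxynucleotides that also carries a SAM domain, had a log2 fold change of -0.25 and was not called (limma, adjusted p = 0.382).

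Rtp4 encodes a Golgi chaperone of G protein-coupled receptors that also restricts RNA viruses. Rtp4 (ENSMUSG00000033355; chromosome 16, positions 23520291 to 23614222) was at 1.19 and 0.648 FPKM in the R libraries, against 23.9 and 22.8 FPKM in the vehicle libraries. The vehicle libraries were alike, and R replicate 1 was 1.84 times R replicate 2, on 49 and 25 reads in R and 900 and 872 in vehicle. The mean was 25.4-fold lower in R. Rtp4 fell by 3.68 (SE 0.17; limma, Benjamini-Hochberg adjusted p = 0.0019), the third lowest log2 fold change of all genes tested. Its exons share 296 bases with Gm45338 on the same strand, and that gene was at 0.467 and 0.509 FPKM in R, against 0.478 and 0.513 FPKM in vehicle. The other receptor transporter genes Rtp1, Rtp2 and Rtp3 were listed at 0 in each library, which at a limit of 3 reads allows up to 0.0636 FPKM.

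Ifi44 encodes a cytoplasmic protein of the interferon response, and Ifi44l is its neighbouring relative. Ifi44 (ENSMUSG00000028037; chromosome 3, positions 151730922 to 151749960) was at 0.135 and 0.334 FPKM in the R libraries, against 2.78 and 3.24 FPKM in the vehicle libraries. The groups did not overlap, and R replicate 2 was 2.47 times R replicate 1. The mean was 12.8-fold lower in R, on 16 and 37 reads in R and 301 and 356 in vehicle, and Ifi44 fell by 1.70 on the log2(FPKM + 1) scale (SE 0.17; limma, Benjamini-Hochberg adjusted p = 0.0113). Ifi44l had 2 and 3 reads in R and 8 and 3 in vehicle and was too low to test.

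Xaf1 encodes a protein that counteracts XIAP, an inhibitor of caspases, and so links the interferon response to cell death. Xaf1 (ENSMUSG00000040483; chromosome 11, positions 72301629 to 72313733) was at 0.961 and 0.766 FPKM in the R libraries, against 7.09 and 5.52 FPKM in the vehicle libraries. The groups were well apart and replicates differed 1.25-fold in R and 1.28-fold in vehicle. Xaf1 fell by 1.96 on the log2(FPKM + 1) scale (SE 0.16; limma, Benjamini-Hochberg adjusted p = 0.00728), with a 7.29-fold lower mean in R. Xiap was at 5.87 and 8.81 FPKM in the R libraries, against 6.58 and 7.81 FPKM in the vehicle libraries, with groups that overlapped (limma, Benjamini-Hochberg adjusted p = 0.991). Of 6 tested partners of the effectors (Irak1, Traf6 and Mavs of antiviral signalling, and Xiap, Birc2 and Birc3 of cell death control), limma and voom each called 0. In limma 1 of them had an unadjusted p under 0.05, as did 1947 of all 12176 genes tested. Log2 fold changes were -0.19 for Irak1, -0.24 for Traf6, -0.12 for Mavs, 0.01 for Xiap, -0.01 for Birc2 and -0.68 for Birc3 (limma, adjusted p = 0.103). Fdps, which makes the farnesyl diphosphate of sterol synthesis and binds viperin, was at 0.289 to 0.477 FPKM and untested, and its processed pseudogenes make that value uncertain.

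**Figure D2:**
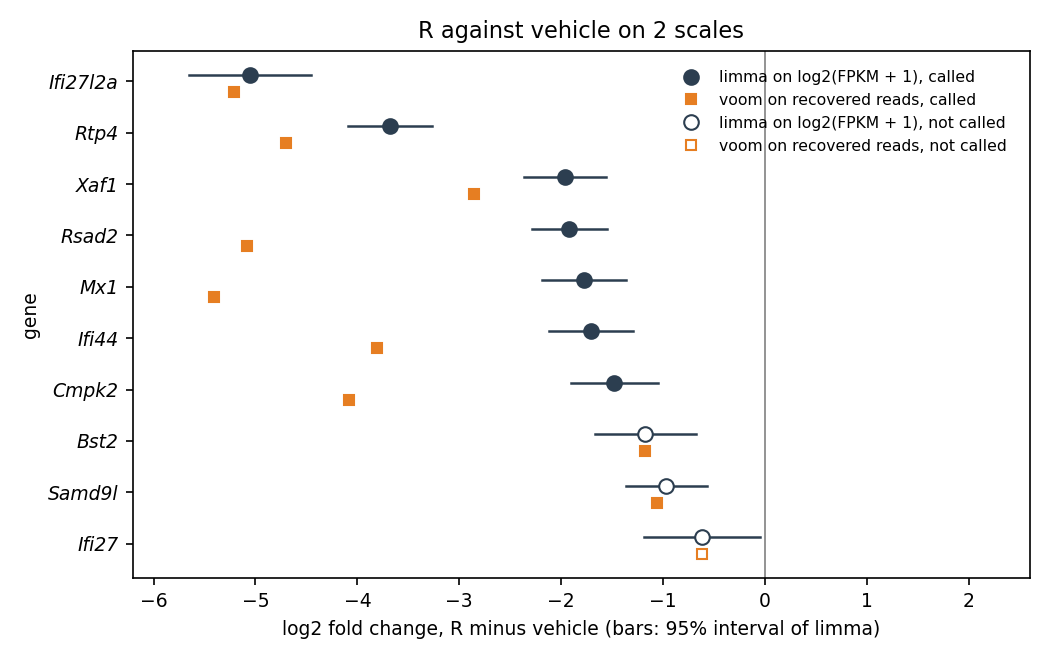
Log2 fold change of R minus vehicle (horizontal) for each gene, as circles with 95% intervals from limma on log2(FPKM + 1) and as squares from voom on recovered reads, filled where the adjusted p was under 0.05. The scales nearly coincide for Bst2, Samd9l and Ifi27 and part for genes of a few FPKM, as in Mx1 at -1.78 and -5.41.

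The size of the change depended on the scale for the low genes. On log2(FPKM + 1) the order from the largest change was Ifi27l2a, Rtp4, Xaf1, Rsad2, Mx1, Ifi44, Cmpk2, Bst2, Samd9l and Ifi27. By the ratio of mean FPKM it began with Mx1, Ifi27l2a and Rsad2, and ended with Bst2, Samd9l and Ifi27. Bst2, Samd9l and Ifi27 were last on these scales, at 2.24-, 2.1- and 1.5-fold lower means. With a pseudocount of 5 FPKM the order changed: Cmpk2 was at -0.48, Mx1 at -0.59, Ifi44 at -0.61 and Rsad2 at -0.67, beside -1.15 for Bst2, -0.71 for Samd9l and -0.57 for Ifi27. With one of 0.1 FPKM Cmpk2 was at -3.30 and Mx1 at -4.12. The difference between Bst2, Samd9l and Ifi27 and the other 7 as sets was not tested.

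The order of levels also differed between the groups. In R it ran Bst2, Ifi27, Ifi27l2a, Samd9l, Rtp4, Xaf1, Ifi44, Cmpk2, Rsad2 and Mx1, and in vehicle Bst2, Ifi27l2a, Ifi27, Rtp4, Samd9l, Xaf1, Rsad2, Ifi44, Mx1 and Cmpk2. Neighbours whose replicates overlapped in R were Ifi27l2a with Samd9l, Rtp4 with Xaf1, Ifi44 with Cmpk2, and Cmpk2 with Rsad2. In vehicle they were Bst2 with Ifi27l2a, and each successive pair from Rsad2 to Cmpk2. The means ran from 0.057 to 140.4 FPKM in R, against 2.17 to 314 FPKM in vehicle.

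Replicates of R disagreed in a way that went with gene length. Bst2, Ifi27, Ifi27l2a and Rtp4, with 463 to 2131 bases of exon, were 1.39 to 1.84 times as high in R replicate 1 as in R replicate 2. Of the 6 longer genes, with 3785 to 6129 bases, Samd9l, Mx1, Ifi44 and Cmpk2 were 1.2 to 2.67 times as high in R replicate 2, and Rsad2 and Xaf1 were 1.25 times as high in R replicate 1. Mx1, Cmpk2, Rsad2 and Ifi44 had only 3 to 37 reads a library in R, so their ratios are imprecise. A trend of this kind ran through all tested genes. Among those of at most 1987 bases the median deviation from the mean of the 4 libraries, on the log2 scale, was 0.13 in R replicate 1 and -0.17 in R replicate 2, against 0.07 and -0.04 in the vehicle libraries. Among those of at least 7187 bases it was -0.11 and 0.12 in R, against -0.06 and 0.04 in vehicle. After removal of that trend, a step chosen after the data were seen, limma called 9 of the 10 genes lower, where it called 2.87% of all genes lower. Bst2 and Samd9l then passed (adjusted p = 0.00914 and adjusted p = 0.0291, within the ranges given above) and Ifi27 did not (adjusted p = 0.0865).

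**Figure D3:**
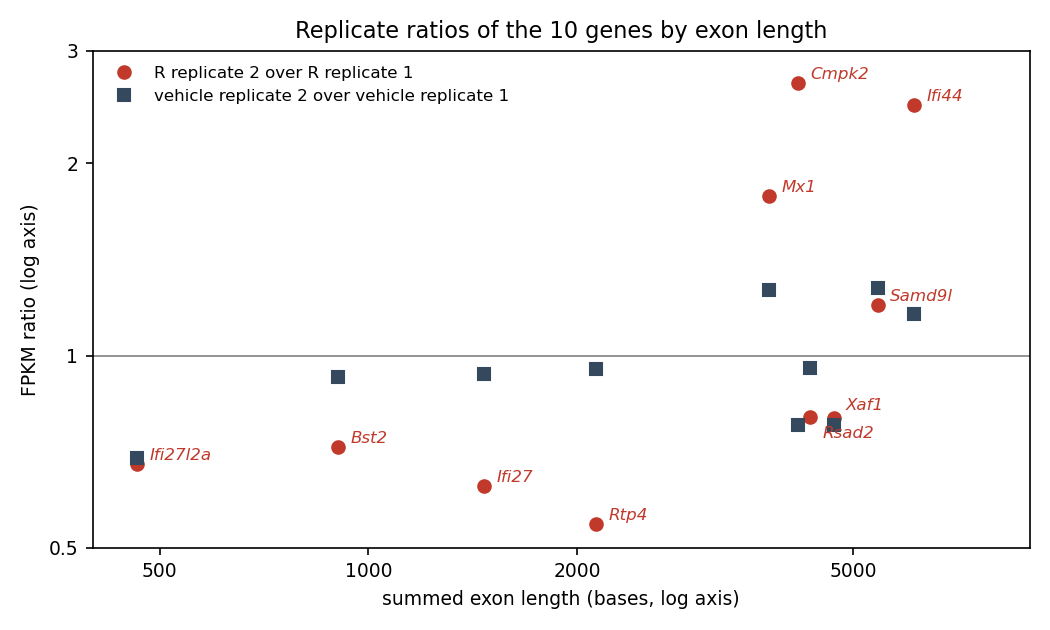
Ratio of replicate 2 to replicate 1 in FPKM (vertical, log axis) against summed exon length (horizontal, log axis) for the 10 genes, in R (red circles, labelled) and in vehicle (blue squares). The 4 shortest genes lie below 1 in R, while Cmpk2, Ifi44, Mx1 and Samd9l lie above it, and the vehicle ratios stay between 0.692 and 1.28. Ratios of Mx1, Cmpk2, Rsad2 and Ifi44 in R rest on 3 to 37 reads a library.

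Upstream in the pathway, the interferons themselves were barely detected. Of 11 ligand genes, 9 were listed at 0 in each library, among them Ifnb1, where 3 reads would correspond to 0.207 to 0.227 FPKM. Ifnz was at 0.0709 and 0.151 FPKM in R, against 0.271 and 0.152 FPKM in vehicle, and Ifnk at 0.0644 and 0.0687 FPKM in R and listed at 0 in vehicle. None was high enough to test.

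Receptors and kinases were expressed, except Ifnlr1, which was at 0.0533 to 0.185 FPKM and untested. In limma without correction for gene length none was called. Of the chains of the type I interferon receptor, Ifnar1 had 26.1 ± 2.88 in R libraries and 28.1 ± 0.617 in vehicle libraries (FPKM, SD, n = 2 each). Ifnar2 had 25.2 ± 0.121 in R libraries and 34.4 ± 2.05 in vehicle libraries (FPKM, SD, n = 2 each). Of 5 tested receptor genes limma and voom each called 0. In limma 3 had an unadjusted p under 0.05, as did 1947 of all 12176 genes tested. The 3 were Il10rb, Ifnar2 and Ifngr2, at log2 fold changes of -0.54, -0.43 and -0.38. After the length correction limma called Il10rb lower (adjusted p = 0.0412), 1 of the 5, where it called 2.87% of all genes lower. Of 3 kinases limma and voom each called 0, with 0 at an unadjusted p under 0.05 in limma, at log2 fold changes of -0.07 for Jak1, -0.25 for Jak2 and 0.04 for Tyk2.

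Transcription factors of the pathway were among the genes that fell. Of 7 tested, limma called 4 lower and 0 higher, where it called 1.37% of all tested genes lower. Their median log2 fold change was -1.02 where that of all genes was 0.00. Irf7, which amplifies interferon production, was at 0.741 and 0.425 FPKM in the R libraries, against 10.6 and 9.18 FPKM in the vehicle libraries (adjusted p = 0.00201). Irf9, the DNA-binding subunit of the complex on the response element, had 3.16 ± 0.207 in R libraries and 11.2 ± 1.26 in vehicle libraries (FPKM, SD, n = 2 each), with adjusted p = 0.0075 in limma. Its partner Stat2 had 4.17 ± 0.294 in R libraries and 12.7 ± 0.857 in vehicle libraries (FPKM, SD, n = 2 each), with adjusted p = 0.00763. Not called were Irf1 (-0.31), Irf3 (0.25) and Irf8 (-0.34).

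Of 6 feedback inhibitors 1 fell and 0 rose in limma after adjustment. It was Usp18, which removes Isg15 from proteins and blocks the type I receptor, at 0.39 and 0.436 FPKM in the R libraries, against 5.12 and 5.09 FPKM in the vehicle libraries (adjusted p = 0.00293). The others were not called, at log2 fold changes from -0.42 for Ptpn6 over -0.38 for Ptpn2 to 0.34 for Socs1. Over all genes tested, 1.37% fell after adjustment and 25.2% had both R libraries below both vehicle libraries. Among 50 other interferon-stimulated genes, 32 fell and 0 rose, with a median log2 fold change of -1.30 and 48 whose R libraries both lay below both vehicle libraries. Smallest in p were the RNA-binding antiviral proteins Oas2, Oasl2 and Ifit1, at log2 fold changes of -3.58, -3.25 and -3.01. The median of -1.74 over the 10 effectors stands beside that of -1.30, and the difference between these lists was not tested. Rescaling to TPM moved the median of all tested genes to 0.13, and the medians of both lists stayed below 0, at -2.43 for the effectors and -1.26 for the other genes.

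**Figure D4:**
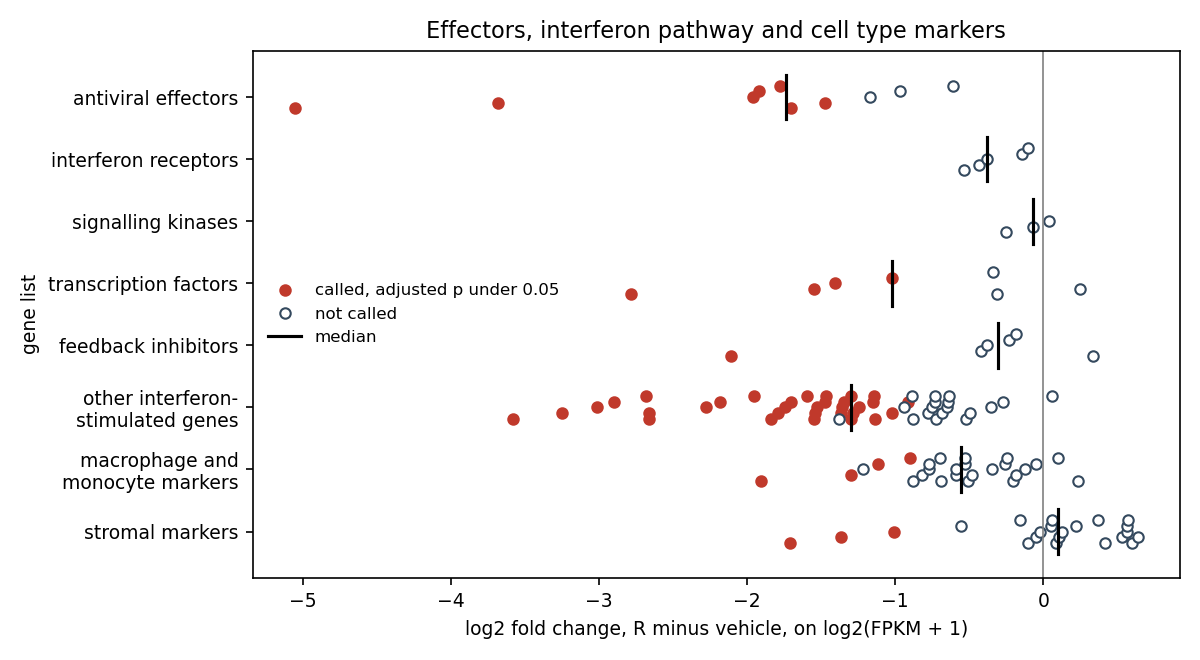
Log2 fold change of R minus vehicle on log2(FPKM + 1) (horizontal) for each tested gene of 8 lists (rows), filled red where called and open where not, with a black line at each median. Effectors, transcription factors and other interferon-stimulated genes extend far to the left, while receptors and kinases sit between -0.54 and 0.04.

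Values of most macrophage markers were lower in the same R libraries. The median log2 fold change of 26 tested was -0.56 and 24 were below 0. The 2 above 0 were Cx3cr1 (0.23) and Cd163 (0.10), and Csf1r (-0.26) and Adgre1 (-0.13) were among those not called. Limma called 4 lower (Fcgr1, Ctss, Ly86 and Itgam) and 0 higher, where it called 1.37% of all tested genes lower. After the length correction it called 12 of the 26 lower and 0 higher, where it called 2.87% of all genes lower. Lyz2, Cd68, Cd14, Fcgr3 and Cd74 were among the additional ones. For 22 tested stromal markers the median was 0.10 and 8 were below 0, with 3 called lower (Ly6a, Lum and Dcn) and 0 higher. After the length correction 3 were called lower and 3 higher, the higher ones being Pdgfrb, Col1a1 and Fn1. The part of the macrophage transcripts in the effector result was not tested. Ifi27, with a log2 fold change of -0.61, was near the macrophage median, and the other 9 effectors lay below it, from -0.97 to -5.05. Of the 26 markers, Fcgr1, an Fc receptor that interferon gamma induces, had the lowest log2 fold change on log2(FPKM + 1), -1.90, and Ifi27l2a, Rtp4, Xaf1 and Rsad2 were lower than it on that scale. By the ratio of means Fcgr1 was 3.98-fold lower in R, and Mx1, Cmpk2 and Ifi44 (46.2-, 15.8- and 12.8-fold) also exceeded it.

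The 5 protein-coding genes outside the 10 whose profile over the 4 libraries was most like the mean profile of the effectors were Mndal, Dhx58, Sfrp4, Usp18 and Phf11b. Likeness was the Euclidean distance between centred log2(FPKM + 1) values, from 0.075 to 0.193 over these 4 libraries. The genes were chosen from these values, so their levels are a description. Mndal was at 4.77 and 4.48 FPKM in R, against 21.6 and 21.1 FPKM in vehicle. Sfrp4, which encodes a secreted Wnt antagonist, was at 14.0 and 13.4 FPKM in R, against 64.3 and 64.2 FPKM in vehicle, and Phf11b at 1.49 and 1.03 FPKM in R, against 9.82 and 8.33 FPKM in vehicle.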

How the data were processed

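RNA sequencing values were analysed from 2 R and 2 vehicle libraries of cultured mouse bone marrow cells, grouped by sample title. The members and gene lists were chosen with earlier results of these data known. The authors deposited 1 FPKM value per gene and library, per the file headers; 10 empty columns were not used. GRCm38, mm10 and edgeR 3.18.1 are named per the submitters' processing notes, without a role. For the aligner, the counting tool, its strand setting and the annotation the entry is: not given in the sources used here.

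GENCODE M21 gave symbols, coordinates (1-based) and exon lengths to 54495 identifiers, and 37 did not match. FPKM multiplied by summed exon length gave whole reads, within 0.02, for 96.3 to 96.4% of values above 0, and these recovered reads served for depth, counting intervals and voom.

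Values were tested as log2(FPKM + 1) with limma 3.58.1 under R 4.3.3, without further terms, allowing the variance to depend on level, and p-values were adjusted by Benjamini-Hochberg. The 12176 genes averaging 1 FPKM or more over the libraries entered, all 10 members among them. The fit had 2 residual degrees of freedom. Standard errors (SE) and fold changes are R minus vehicle. The fit was also run on simulated libraries. These had equal noise in both groups and no length trend, unlike the data. Ratios of genes were compared by exact permutation (SciPy 1.17.1). All 10 members are named. In each pathway list the 3 genes with the smallest p are named, and relatives and partners are given by value. Irf1, Irf3, Irf8, Socs1, Ly6a, Lum, Dcn, Pdgfrb, Col1a1, Fn1, Cd4, Cd79b and the macrophage markers named as called or by log2 fold change were chosen after their values were seen. Alternatives were pseudocounts of 0.1 and 5 FPKM, 2 filters, TPM, quantile normalization, no variance trend, voom, a replicate block, each library left out and a length correction.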

Additional observations from a re-analysis of the deposited data

How the results depend on the processing

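Of 140 values of single members over 14 alternatives, 7 lost the call and 0 changed direction. No change of direction was possible where only a library, a filter or the pseudocount changed, because the groups did not overlap. The 7 losses came without a filter on low values, where 24958 genes were tested and log2 fold changes were those given in the report (Cmpk2 -1.48, Ifi27l2a -5.05, Ifi44 -1.70, Mx1 -1.78, Rsad2 -1.92, Rtp4 -3.68 and Xaf1 -1.96), with adjusted p from 0.0693 to 0.128 in limma. Calls were then 0 of the members, 0 of the other pathway genes (60 of 74 at an unadjusted p under 0.05) and 0 of all genes in either direction (2767 unadjusted). Bst2 gained a call on the TPM scale (-1.04), after quantile normalization (-1.04), by voom (-1.18) and after the length correction (-1.12), and Samd9l by voom (-1.06) and after the length correction (-0.97).

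With single libraries left out, no member could change direction, because both R libraries lay below both vehicle libraries in each. Each of these fits has an arm of 1 library, and only its log2 fold changes are given. They ran from -1.41 to -0.94 for Bst2, from -0.94 to -0.28 for Ifi27 and from -1.13 to -0.80 for Samd9l. Over all genes 193 to 665 were lower and 96 to 438 higher, against 167 and 42 with all libraries. Voom gave 83 genes higher, and the length correction 349 lower and 223 higher. The cause of these shifts was not tested. R and vehicle share replicate numbers, but nothing says that they pair the samples, and the 2 pairs' deviations correlated at 0.353. With a replicate block, which leaves 1 residual degree of freedom, 10 members were lower, Bst2 (-1.17), Ifi27 (-0.61) and Samd9l (-0.97) among them, and 1009 genes were lower and 891 higher over all genes. Depth limits Mx1, Rsad2, Cmpk2 and Ifi44 in R, with 3 to 37 reads a library.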
